A study of Mus musculus with 12 samples.

Results

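A set of 2986 poly(A) site clusters of mouse embryonic stem cells was described, in which ATTAAA, the most common variant of the polyadenylation signal, was listed 31 to 100 nt from the site. A cluster is a stretch of neighbouring 3' ends of polyadenylated RNA that was joined into 1 site. The sites were chosen from the catalogue of 145179 clusters by the hexamer listed for each and its listed distance, with the mitochondrial chromosome left out, which left 145099 clusters and 22394 with ATTAAA. They made up 13.3% of all ATTAAA sites and 2.06% of the nuclear catalogue.

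The RNA came from cells of the V6.5 line that carried a conditional knockout of Exosc3, a core subunit of the nuclear RNA exosome, and its 3' ends were read by 2P-seq, which starts each read at the poly(A) tail. All 12 libraries carried the conditional allele, in 6 groups of 2. Cells on doxycycline (0.1 μg/ml) had Exosc3 and cells taken off it lost Exosc3. In a pair of groups the cells spent 3 days on or off doxycycline, with no oligonucleotide. In the other 4 groups they spent 2 days on or off it and were collected 8 hours after nucleofection of 15 μM of an antisense morpholino against U1 snRNA or of a scrambled one. The labels speak of Exosc3 CKO clones without saying which clone gave which library. Of the 7 columns of the catalogue 0 held a value per library, so no site below could be assigned to a group, depth is unknown, and no marker gene of the cells could be checked. No replicate library stands behind a value. Shares carry a 95% Wilson interval over sites, which covers counting error only, and a difference was computed on each of the 19 autosomes and tested by flipping its signs (2-sided permutation test). Such a p-value speaks of evenness between chromosomes and not of other cultures, and adjacent sites share their surroundings.

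Cleavage and polyadenylation of a pre-mRNA is directed by a hexamer upstream of the cut, which the specificity factor of the cleavage machinery (CPSF) binds, and by a GU- or U-rich element downstream of it. Cleavage usually falls a short way downstream of the hexamer, and many genes carry several sites in tandem, so that alternative use of them changes the length of the 3' end of the transcript. ATTAAA is the variant most often found where the canonical hexamer is missing, and it directs cleavage less strongly than AATAAA. A hexamer listed far from the cut lies outside the usual window.

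The hexamers on which the comparisons turn are shown as the catalogue gives them, with the base that differs from the canonical signal in capitals. Positions are counted from 1 at the 5′ end, and the main variant differs by A2T and the variant with T first by A1T.
canonical signal: aataaa
main variant: aTtaaa
variant with T first: Tataaa
A genome of the build (mm9) was not used here, so the bases around these hexamers and the genes that hold them are not given.

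ATTAAA was seldom listed far away when set beside other hexamers. Of ATTAAA sites 13.3% lay in the 31 to 100 nt range, against 10.9% of the 65222 AATAAA sites, 21.5% of the 4991 AGTAAA sites, 30.9% of the 6404 TATAAA sites and 46.6% of the 4514 AAGAAA sites. Over the 34 hexamers with at least 100 sites the median was 46.5%, and 1 of them, AATAAA, had a lower share than ATTAAA. The share was even across the genome, at 13.4% ± 1.27 (SD, n = 19 autosomes, from 11.0 to 16.9%) and 12.7% on the X chromosome. The autosomes held 2906 of the sites, from 83 to 232 each, the X chromosome 72, and the Y chromosome and unplaced sequence 8. The strands were equal, with 1503 sites on the plus and 1483 on the minus strand.

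The distances fell into a shoulder and a level tail. The shoulder continued the main peak of ATTAAA distances outward, with 248 sites at 30 nt, just outside the chosen range, and 194 at 31 nt, just inside it. From 31 to 40 nt there were 1099 sites (36.8%), from 41 to 50 nt 390 and from 51 to 60 nt 261. The tail from 61 to 100 nt held 1236 sites (41.4%). At 61 to 90 nt it stayed at 29.6 sites per nt ± 5.49 (SD over distances), above the 26.1 per nt at 51 to 60 nt, and it ended with 25 sites at 100 nt, where the listed distances stop. The distances of 91 and 92 nt stood out, with 51 and 73 sites, against at most 39 at any other distance from 61 nt.

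**Figure D1:**
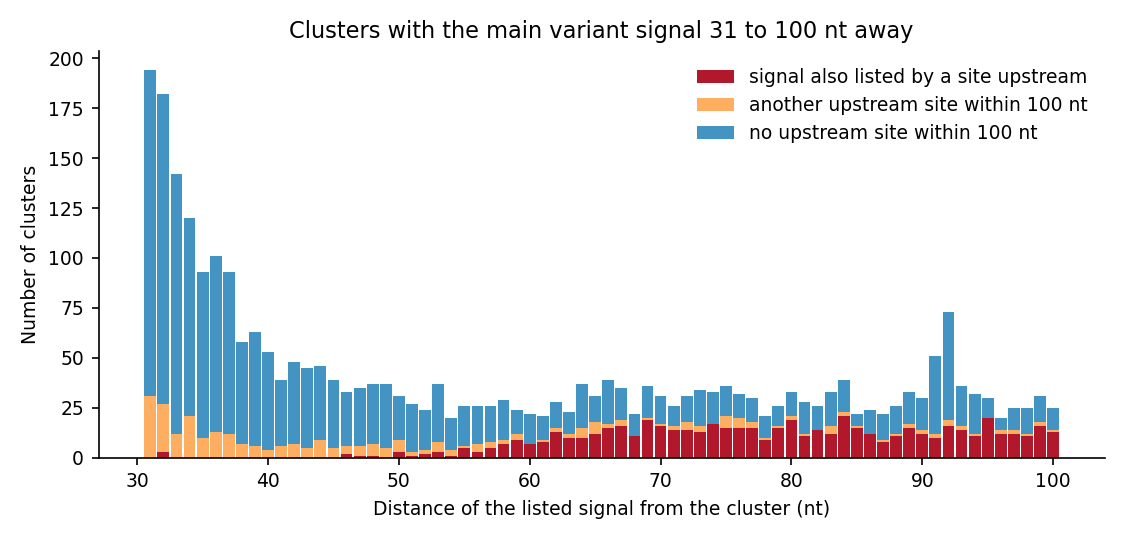
Number of clusters at each distance, in nt, of the listed main variant signal, stacked by whether a site upstream on the same strand lists a signal at the same possible position, another upstream site lies within 100 nt, or none does. The blue part falls from 31 nt onward, and 91 and 92 nt rise to 51 and 73 clusters. The dark red part appears near 50 nt and rises, from 4.3 per nt at 51 to 60 nt to 13.6 per nt at 61 to 90 nt.

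Another site often lay close upstream, far more often than for ATTAAA at its usual distance. Of the 2986 sites 898 had a neighbour upstream on their strand at most 100 nt away, edge to edge, which was 30.1% (interval 28.5 to 31.7%). Among the 18655 ATTAAA sites at 15 to 30 nt it was 9.15% (interval 8.74 to 9.57%), and over the nuclear catalogue 13.4% (interval 13.2 to 13.5%). By autosome the distant sites ran from 23.8 to 36.4% and the near ones from 6.25 to 11.4%, without overlap. The difference was 21.0 percentage points ± 3.72 (SD, n = 19), higher on 19 of 19 autosomes (adjusted p = 2.5e-05, the smallest among these comparisons, permutation test, Benjamini-Hochberg over 20 tests). Without sites that may list the same hexamer as another site, described below, it was 3.62 points (adjusted p = 5e-05, permutation test). That filter takes out, by construction, sites that have a neighbour. Of the near sites 9 (0.0482%) could list the same hexamer as a site upstream, against 595 of the distant ones. The listed distances chose both sets and limit how often this can occur, so neither p-value shows a trait apart from distance. Downstream the gap was smaller, with a site within 100 nt for 16.4% of distant and 10.5% of near ATTAAA sites, a difference of 5.49 points ± 3.43, higher on 18 of 19 (adjusted p = 2.5e-05, permutation test), and 2.29 points with neighbours within 50 nt (adjusted p = 0.00144, permutation test).

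The upstream neighbour appeared with distance. At 31 to 40 nt 13.0% of sites had one within 100 nt, at 41 to 50 nt 16.7% and at 51 to 60 nt 26.1%. At 61 to 70 nt the share was 50.5%, at 71 to 80 nt 57.3%, at 81 to 90 nt 51.2% and at 91 to 100 nt 43.4%. Sites at 31 to 60 nt were therefore below those at 61 to 100 nt, with a difference of -34.6 points (15.7% ± 3.65 against 50.3% ± 5.04, SD over 19 autosomes), on 19 of 19 (adjusted p = 2.5e-05, permutation test). The ranges split the distance that chose the sites. ATTAAA could be shared with a site upstream by 53 sites at 31 to 60 nt and by 542 at 61 to 100 nt. The distance itself limits such sharing, so the p-value is not separate support. The number of sites with no upstream neighbour fell with the total at first, from 95.6 per nt at 31 to 40 nt to 32.5 at 41 to 50 nt, 19.3 at 51 to 60 nt. From there to 61 to 90 nt it went on to 13.9 per nt, while the total went from 26.1 to 29.6. When sites whose ATTAAA may be listed by another site too were left out, the difference between the ranges was 1.22 points and turned in sign (adjusted p = 0.397, permutation test). Leaving them out removes, by construction, sites that have a neighbour.

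The neighbour mostly listed the same hexamer. For the 898 sites the nearest upstream site listed ATTAAA in 649 cases (72.3%, interval 69.3 to 75.1%), AATAAA in 64 (7.13%), no hexamer in 47 (5.23%) and TATAAA in 31 (3.45%). Upstream neighbours over the whole nuclear catalogue listed ATTAAA in 13.1% of cases and AATAAA in 24.2%. At 61 to 100 nt ATTAAA made up 88.3% of 622 upstream neighbours (interval 85.5 to 90.6%), and at 31 to 60 nt 36.2% of 276 (interval 30.8 to 42.1%). Near ATTAAA sites that had an upstream neighbour found ATTAAA there in 20.5% of 1706 cases.

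To see whether the neighbours listed 1 and the same ATTAAA, the position of each hexamer was worked out from the cluster and the listed distance. No source used here says where in a cluster the distance starts, so each position is known only to within the cluster's width. Where both sites were 1 nt wide it is exact, and in 7 of 8 such pairs with a distant ATTAAA site both sites pointed to the same base. Measured from cluster midpoints, the offset between the positions had a median of 1.5 nt over the 649 pairs, and 450 lay within 10 nt of 0. Allowing any point of each cluster, the positions could be equal in 595 of the 649 pairs (91.7%) and could not in 54. Exact equality of positions taken from the 5′ edges was met by 2.31% of the 2986 sites (interval 1.83 to 2.91%, a partner on either side). This rose to 9.78% within 5 nt and 21.4% with any point of each cluster (interval 20.0 to 22.9%, chosen after the data had been seen). Exact equality from midpoints was met by 0.837%. The share therefore depends strongly on the rule, and the counts of possible sharing below use the widest rule, any point.

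**Figure D2:**
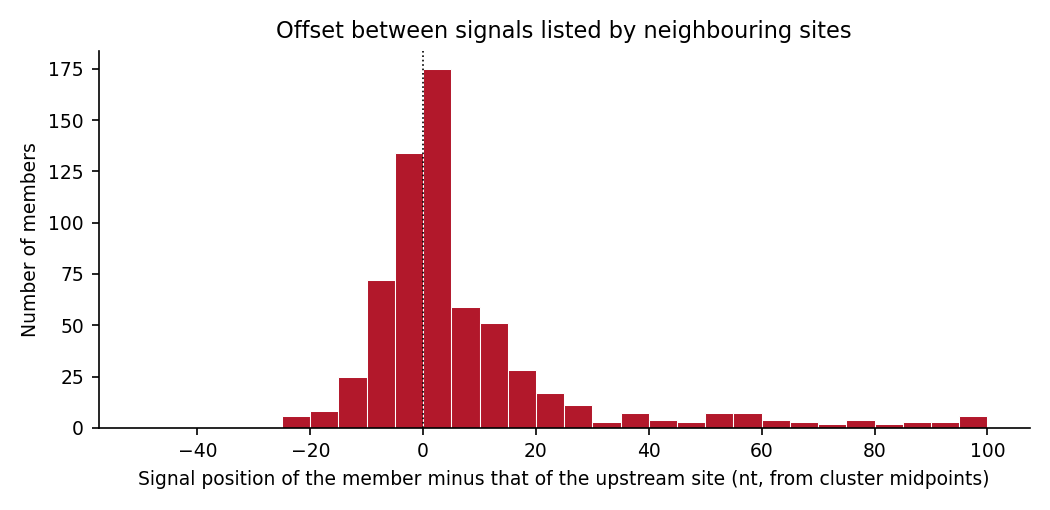
Number of distant ATTAAA sites by the offset, in nt and in steps of 5, between the position of their signal and that of the nearest upstream site within 100 nt that lists the same hexamer, both measured from cluster midpoints. The 2 bars beside 0 hold 134 and 175 of 649 sites, the lowest bar starts at -25 nt, and 5 sites at 100 nt or more are not drawn.

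The sites that could share their ATTAAA with a site upstream numbered 595, or 19.9% of all (interval 18.5 to 21.4%), and 542 of them lay at 61 to 100 nt. Their upstream partner had the hexamer at a median of 21 nt (quartiles 19 and 25 nt), and 524 of the 595 partners (88.1%) had it at 15 to 30 nt. Another 48 partners were themselves in the 31 to 100 nt range and 23 lay closer than 15 nt. The gap between partner and site had a median of 40 nt (quartiles 31 and 49 nt) and reached 80 nt. The sharing is limited by construction, since a partner at its usual distance and a gap of this size put the downstream site beyond 50 nt, and since the list ends at 100 nt. The partner was the wider cluster in 397 pairs, the narrower in 173 and as wide in 25, with median widths of 16 nt for partners and 9 nt for the sites downstream. On 18 of 19 autosomes the partner was wider more often than narrower. Near ATTAAA sites as a whole had a median width of 8 nt. Wide clusters meet the rule of any point more easily, and how far this shaped the widths of the pairs was not tested.

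Of the signals joined in this way, 589 could belong to 2 sites and 3 to 3 sites, by overlap of possible positions only. On the minus strand of chromosome 1 the listed distances were 23, 62 and 96 nt, for clusters of 17, 5 and 10 nt. These lay at 180259657 to 180259673, 180259628 to 180259632 and 180259590 to 180259599 (mm9). On the minus strand of chromosome 4 the distances were 21, 50 and 97 nt, for clusters of 4, 2 and 2 nt that start at 119065495, 119065465 and 119065419. On the minus strand of chromosome 13 they were 22, 55 and 63 nt, for clusters of 11, 2 and 2 nt that start at 12278800, 12278769 and 12278761. In each of these 3 cases the cluster at the usual distance was the widest.

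What other sites listed within reach of a distant ATTAAA was nearly always ATTAAA or AATAAA. Counted from midpoints, 629 other sites lay 6 to 100 nt downstream of the ATTAAA of 1 of the 2986 sites, which is the range of distances the catalogue uses. Of them 582 listed ATTAAA, 34 AATAAA, 11 another hexamer and 2 none, so 97.9% listed either of the first pair (interval 96.5 to 98.8%). Where the whole range of possible positions lay in reach, this was 388 of 388 sites, 374 with ATTAAA and 14 with AATAAA. Sites with a listed hexamer that followed an AATAAA within reach nearly always listed AATAAA. Of 2022 sites with a listed hexamer that lay 6 to 95 nt downstream of the AATAAA of the site before them, 1961 (97.0%) listed AATAAA and 9 ATTAAA. Of 1070 sites placed in the same way after an ATTAAA, 693 listed ATTAAA, 360 AATAAA and 17 another hexamer. Among the 2986 sites, 8 (0.268%) had the AATAAA of another site within 6 to 100 nt upstream of their midpoint. Where the nearest upstream neighbour listed AATAAA, in 64 cases, that AATAAA lay a median of 132 nt from the distant ATTAAA site, and in 56 of the 64 it was beyond 100 nt. Whether a weaker hexamer such as TATAAA lay closer to these sites than their listed ATTAAA was not analysed here, because the catalogue lists 1 hexamer per site. Whether the way that 1 hexamer was chosen fixed the counts of this paragraph was not tested. Pairs that could share an ATTAAA, given above, are among the sites counted here, so these counts are not separate support.

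AATAAA sites in the same range of distances also often had an upstream neighbour. Of the 7079 AATAAA sites at 31 to 100 nt 26.1% had one within 100 nt (interval 25.1 to 27.2%), against 30.1% for ATTAAA, a difference over autosomes of 3.49 points ± 4.46 (SD, n = 19), higher on 15 of 19 (adjusted p = 0.00453, permutation test). The sets differed in their mix of distances, with a median of 51 nt for ATTAAA and 43 nt for AATAAA. With AATAAA sites weighted to the distances of the ATTAAA sites the difference was -1.66 points (adjusted p = 0.183, permutation test). Compared with its own change from 15 to 30 nt, AATAAA gained upstream neighbours by 18.5 points ± 1.94 and ATTAAA by 21.0 ± 3.72, and these gains differed by 2.53 points ± 4.72 (adjusted p = 0.0393, permutation test). That difference did not pass on either strand alone (0.235 and 4.40 points). Downstream neighbours within 100 nt were more common for ATTAAA than for AATAAA at 31 to 100 nt, 16.4 against 11.4%, by 4.53 points ± 3.84, on 18 of 19 autosomes (adjusted p = 0.00022), by 3.76 points with equal distances (adjusted p = 0.00062) and by 1.55 points with neighbours within 50 nt (adjusted p = 0.0424, permutation tests). The change with distance did not pass the threshold for a difference between the hexamers in downstream neighbours (0.894 points ± 3.89), in the share of last sites of runs (-1.79 ± 5.30), in log2 width (0.029 ± 0.20) or in the share of clusters 1 nt wide (1.65 ± 3.93), with adjusted p from 0.107 to 0.55 (permutation tests). The share that could hold a signal in common with an upstream site was 19.9% for ATTAAA and 20.3% for AATAAA (interval 19.4 to 21.3%). By range of distance the upstream shares, which were not tested singly, went both ways. ATTAAA stood above AATAAA at 31 to 40 nt (13.0 against 8.71%), 41 to 50 nt (16.7 against 10.4%) and 61 to 70 nt (50.5 against 46.1%). They were close at 51 to 60 nt (26.1 and 25.7%) and 71 to 80 nt (57.3 and 57.4%). ATTAAA stood below at 81 to 90 nt (51.2 against 63.4%) and at 91 to 100 nt (43.4 against 68.2%), the range that holds the raised counts at 91 and 92 nt. Without 91 and 92 nt the share for ATTAAA at 81 to 100 nt was 52.3%, below both of these AATAAA shares.

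**Figure D3:**
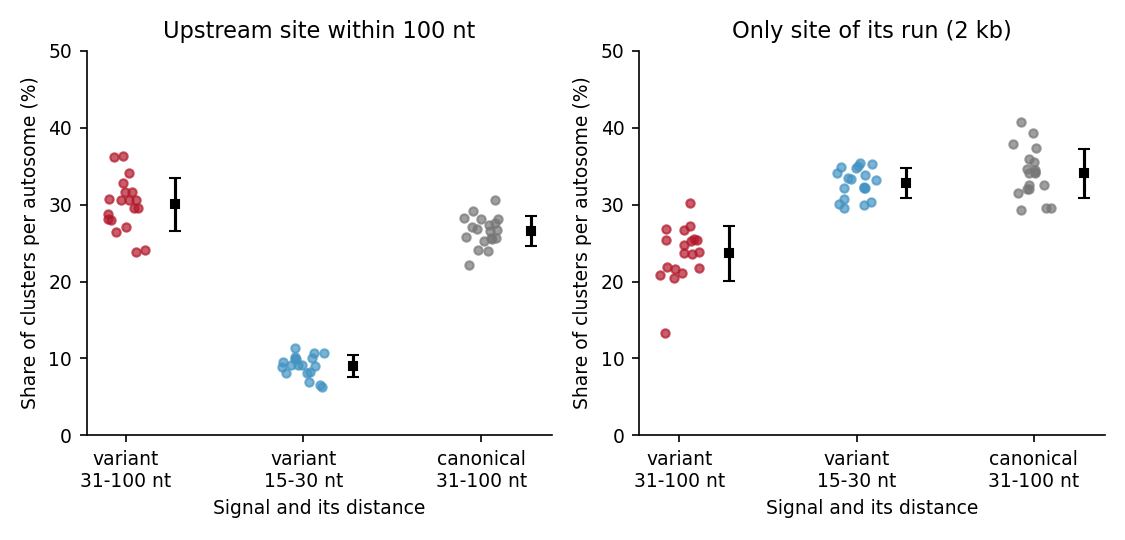
Share of clusters, in percent, with an upstream site on the same strand within 100 nt (left) and share that is the only site of its run (right), 1 point per autosome, for the variant signal at 31 to 100 nt, the variant signal at 15 to 30 nt and the canonical signal at 31 to 100 nt. Squares and bars are the mean and SD over 19 autosomes, and on the left the distant variant sites, from 23.8 to 36.4%, lie above all near ones, from 6.25 to 11.4%.

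The distant ATTAAA sites stood alone less often than either comparison set. A run holds sites of a strand with no gap over 2 kb between neighbours. Of the 2986 sites 712 were the only site of their run (23.8%, interval 22.4 to 25.4%), against 32.8% of near ATTAAA sites and 34.7% of AATAAA sites at 31 to 100 nt. Over autosomes the differences were -9.12 points ± 3.38 and -10.4 points ± 5.10 (SD, n = 19), both lower on 19 of 19 (adjusted p = 2.5e-05 for each, permutation test). The first was -3.53 points without sites that may share a signal (adjusted p = 0.0044), -4.41 with runs joined at 5 kb and -16.9 at 0.5 kb (adjusted p = 2.5e-05 for both, permutation tests). With AATAAA sites weighted to the same distances the second was -8.43 points (adjusted p = 5e-05, permutation test). The runs of the distant sites had a median of 4 sites, those of near ATTAAA sites 2. AATAAA sites were also alone less often at 31 to 100 nt than at 15 to 30 nt (34.7 and 41.7%). The change with distance did not pass the threshold for a difference between the hexamers, at -1.59 points ± 4.96 (adjusted p = 0.201, permutation test). It did pass without sites that may share a signal, at -4.74 points (adjusted p = 0.00249), without 91 and 92 nt, at -2.71 (adjusted p = 0.0341), and on the minus strand, at -4.02 (adjusted p = 0.021, permutation tests). Leaving out sites that may share a signal removes, by construction, no lone site, so -3.53 and -4.74 points are not separate support. Sites that may share a signal with a site on either side numbered 640 of the distant ATTAAA sites (21.4%). Of the near ones they numbered 542 (2.91%). The listed distances that chose both sets limit such sharing, so the p-value for -9.12 points does not show a trait apart from distance.

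Within runs of 2 or more sites the distant ATTAAA sites were less often the last than either comparison set. They were the most downstream site in 501 of 2274 cases (22.0%, interval 20.4 to 23.8%), against 29.0% of near ATTAAA sites and 32.0% of AATAAA sites at 31 to 100 nt. Over the nuclear catalogue it was 26.1% (interval 25.9 to 26.4%). A larger run leaves a smaller share of last sites. The median run size, lone sites included, was 4 for the distant sites and 2 for either comparison set. A difference at equal run size was not tested. The differences were -7.34 points ± 4.21, lower on 19 of 19 autosomes, and -10.7 points ± 5.88, lower on 18 of 19 (adjusted p = 2.5e-05 for each, permutation test). With runs joined at 0.5 kb the first was -1.37 points and no longer passed (adjusted p = 0.398, permutation test). The second was then -8.40 points (adjusted p = 0.00024, permutation test). Why the first changed with the joining gap was not tested. Of the sites, 2601 were the only one of their kind in their run or alone, and 178 runs held 2 or more. The run with the most, 7 among 76 sites, lay at 88239954 to 88254802 of chromosome 1, minus strand, with 12 ATTAAA sites of any distance and 4 AATAAA sites, and 3 of the 7 could share their signal with a site upstream. The next held 5 among 56 sites, at 180251226 to 180267453 of chromosome 1, minus strand. It includes the 3 sites given above that could share a signal. The third held 4 among 12 sites, at 136406502 to 136410104 of chromosome 5, minus strand.

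The width of the clusters changed along the range. At 31 to 40 nt the median was 16 nt (quartiles 6 and 26 nt), at 41 to 50 nt 20 nt, at 61 to 70 nt 8 nt and at 91 to 100 nt 6 nt (quartiles 2 and 17.25 nt). Mean log2 width was 3.50 ± 0.26 at 31 to 60 nt and 2.80 ± 0.32 at 61 to 100 nt, a difference of 0.70 ± 0.39 (SD over 19 autosomes), higher on 18 of 19 (adjusted p = 2.5e-05, permutation test). Since the distance was counted from an unstated point, wide clusters can carry larger distances by their width alone, and the part of this in the shoulder was not tested. Among all 2986 sites the median was 12 nt, against 8 nt for near ATTAAA sites and 14 nt for AATAAA sites at 31 to 100 nt. The mean log2 width was above that of near ATTAAA sites by 0.28 ± 0.19, higher on 17 of 19 autosomes (adjusted p = 6.7e-05, permutation test). Against AATAAA sites the difference was -0.17 ± 0.22, lower on 16 of 19 (adjusted p = 0.00497), and with AATAAA weighted to the same distances -0.11 (adjusted p = 0.0599, permutation tests).

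Clusters of a single position were also more common among the distant sites than in either comparison set. They were 409 of 2986 (13.7%, interval 12.5 to 15.0%), against 11.0% of near ATTAAA sites and 10.8% of AATAAA sites at 31 to 100 nt. Over the nuclear catalogue the share was 12.4% (interval 12.2 to 12.6%), close to that of the distant sites. The differences were 2.79 points ± 3.38, higher on 14 of 19 autosomes (adjusted p = 0.00345), and 2.86 points ± 4.10, higher on 13 of 19 (adjusted p = 0.00996, permutation tests). Sites at 61 to 100 nt with no neighbour upstream within 100 nt had a median width of 5 nt over 614 sites, 93 of them at 91 or 92 nt, and 20.7% were 1 nt wide (interval 17.7 to 24.1%). The widest distant site was a 256 nt cluster at 117148406 to 117148661 of chromosome 10, plus strand, with ATTAAA at 34 nt. It was followed by a 218 nt cluster at 106363849 to 106364066 of chromosome 11, plus strand, with ATTAAA at 58 nt, and a 169 nt cluster at 47939184 to 47939352 of chromosome 19, plus strand, with ATTAAA at 31 nt.

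**Figure D4:**
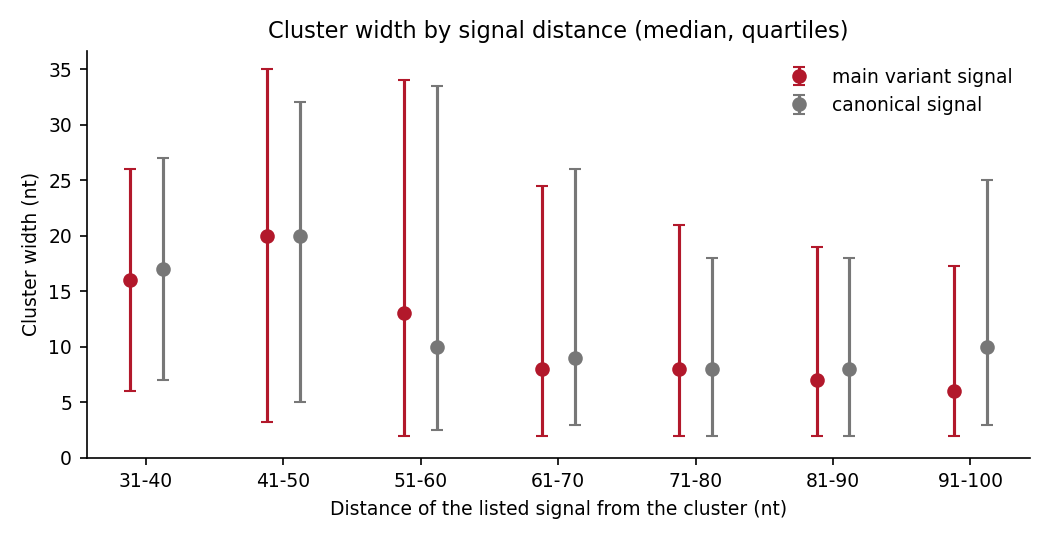
Cluster width in nt by the distance of the listed signal in ranges of 10 nt, for the main variant signal (red) and the canonical signal (grey), as median (points) and quartiles (bars). The red medians are 16 and 20 nt in the first 2 ranges and 8 nt or less from 61 nt onward.

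The sites at 91 and 92 nt differed from those around them, as a description only, since their raised number was known when the range was chosen. The 51 sites at 91 nt and 73 at 92 nt compare with a mean of 28.2 per nt ± 5.17 (SD) over the 18 distances at 81 to 90 and 93 to 100 nt, whose highest was 39. They were 1.81 and 2.59 times that mean. Most of the excess lay in sites with no neighbour within 1 kb upstream, of which there were 33 and 44 at these 2 distances. Around them the mean was 8.83 per nt and the highest 15. Sites with such a neighbour numbered 18 and 29, against a mean of 19.3 and at most 32. AATAAA had 66 and 56 sites at 91 and 92 nt against a mean of 51.9 ± 7.86 around them. All other hexamers together had 203 and 182 against 198.1 ± 15.1.

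These 124 sites were narrower and more isolated than the sites at the distances around them. Their median width was 3 nt (quartiles 2 and 10 nt), against 8 nt for the 507 sites at the distances around them, and 55.6% were at most 3 nt wide (interval 46.9 to 64.1%), against 32.7% (interval 28.8 to 36.9%). A site upstream within 100 nt was present for 25.0% (interval 18.2 to 33.3%), against 52.3% (interval 47.9 to 56.6%). With no other site of their strand within 1 kb on either side were 67 of them, or 54.0%, against 23.9%, and 63 of these 67 were at most 5 nt wide. At 15 to 30 nt 53.1% of AATAAA and 43.9% of ATTAAA sites had no other site within 1 kb. Over the nuclear catalogue it was 42.2%. The 124 sites lay on 18 of the 19 autosomes, the X chromosome and its unplaced sequence, with at most 12 on 1 chromosome and 61 on the plus and 63 on the minus strand. In 6 of the 124 (4.84%) the next site downstream lay 3342 to 3411 nt away, and all 6 of those sites listed AATAAA at 21 to 26 nt, on 5 chromosomes. Among the other 2862 distant sites 14 (0.489%) had their next site 3300 to 3450 nt away, and 7 of these listed AATAAA. This spacing was noticed in the data. No genome or repeat annotation of the build was used here, so whether these sites lie in copies of a repeated sequence, and would then not be separate cases, was not tested. The widest cluster at 91 nt was 155 nt wide, at 180411557 to 180411711 of chromosome 1, plus strand, and the widest at 92 nt 75 nt, at 134398814 to 134398888 of chromosome 7, plus strand.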

How the data were processed

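After RNase T1 treatment, reverse transcription, size selection, circularisation and PCR, poly(A)-selected RNA was read from its tail, per the labels' protocols. Trimmomatic, STAR and bedtools and the build mm9 are named, with no version, by the submitters' processing notes. The rule that joins 3' ends into clusters, a filter against priming at A-rich sequence and the sequence in which hexamers were searched are not given in the sources used here. Positions and hexamer distances, both in nt, were used as the authors deposited them in 1 table for all libraries.

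Starts were read as counted from 0 and are printed from 1. Gaps were measured between cluster edges on a strand. A shared signal means that the possible hexamer positions of 2 sites with the same hexamer overlap. The 20 tests over 19 autosomes used 100000 resamples (seed 1; smallest possible p 1e-05) in Python 3.11.15 with numpy 2.4.6, pandas 2.3.3 and matplotlib 3.10.9. Tests and neighbour rules were tested on simulated data. Sites named by position were the 3 widest, the 3 runs with most members, the 3 signals shared by most sites and the widest at 91 and 92 nt. The members and lists were chosen with earlier results of these data known; the 6 differences between hexamers, the shared signals by any point, the sites in reach and the weighting to equal distances were added after the catalogue had been seen. Alternatives were single strands, other windows, gaps and tolerances, and subsets without wide clusters, 91 and 92 nt or shared signals.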

Additional observations from a re-analysis of the deposited data

How the results depend on the processing

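No paired analysis was possible because the catalogue holds no value per library. Of 137 alternatives to the 20 tests, 122 kept the direction and the side of the threshold or, where the result had not passed, still did not pass. The upstream share against AATAAA at 31 to 100 nt (3.49 points) no longer passed on the plus strand (1.63), without clusters over 50 nt (2.58) or with neighbours within 50 nt (0.895), and turned to -1.66 with AATAAA weighted to equal distances. The difference between hexamers in the change of that share with distance, 2.53 points (adjusted p = 0.0393, permutation test), no longer passed on the plus strand (0.235), on the minus strand (4.40), without clusters over 50 nt (1.58) or with neighbours within 50 nt (0.843). That in the share of lone sites, which did not pass at -1.59, passed on the minus strand (-4.02), without 91 and 92 nt (-2.71) and without shared signals (-4.74). The difference in upstream share between 31 to 60 and 61 to 100 nt, -34.6, was 1.22 without shared signals, which removes by construction the sites that have such a neighbour. The other neighbour and lone-site values without shared signals carry the same limit, and no lone site is among those removed. Runs joined at 0.5 kb brought the most downstream share against near ATTAAA to -1.37. Log2 width against AATAAA was -0.11 with equal distances, and the share of 1 nt clusters against AATAAA 2.39 on the minus strand. The share of sites with a shared position, 2.31% from 5′ edges, was 6.03% within 2 nt, 9.78% within 5 nt, 0.837% from midpoints and 21.4% with any point. ATTAAA made up 61.5% of upstream neighbours within 200 nt. With neighbours within 200 nt the upstream and downstream shares against AATAAA rose to 6.66 and 6.81 points and the difference between hexamers in the upstream share to 3.86, which was 4.36 without shared signals. The cause of the other changes was not tested.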
